A study of Mus musculus with 34 samples.

Results

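The genes Pdx1, Neurog3, Nkx6-1, Nkx2-2, Pax4, Pax6, Neurod1, Mafa and Isl1 encode transcription factors of the pancreatic islet, and the methylation of their CpG islands was measured in mouse DNA by immunoprecipitation with an antibody to 5-methylcytidine (mDIP). Probes were taken by the gene name that the array files give them, and an island was a run of 3 or more probes, each at most 500 bases from the next. In this way 17 islands of 13659 on the array belonged to 8 of the 9 genes, with 120 probes in all. Pax4 had 0 probes, and 1 further probe of Nkx6-1 stood alone and was not scored. Each island was given an island methylation score (IMS), the mean over its probes of the log ratio of bound over input DNA after each array was standardised to mean 0 and SD 1. A higher IMS means that more of the DNA of that island was bound by the antibody, relative to the other probes of the same array. By the thresholds of the study, an IMS above 0.75 was counted as methylated and an IMS below 0 as unmethylated. The study made its probe Z by melting temperature, which was not done here, so its thresholds are applied to a somewhat different score.

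These factors act in a sequence during development of the pancreas. Pdx1 is needed for growth of the early pancreatic bud and later for insulin transcription in beta cells, and Neurog3 commits progenitors to the endocrine fate and switches on Neurod1, Nkx2-2, Pax4 and other factors. Nkx6-1 and Mafa become features of the mature beta cell and Pax6 and Isl1 serve all endocrine cell types of the islet. CpG islands are stretches rich in CG dinucleotides that are usually free of methylation, and methylation of an island at a gene start generally goes with a silent gene.

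The samples comprised 16 arrays of adult tissue of 3 months of age (colon, pancreas, brain, kidney, liver, lung, muscle and spleen, 2 arrays each), 5 of embryos of 8.5, 9.5, 10.5, 11.5 and 12.5 days post coitum, 3 of undifferentiated embryonic stem (ES) cells (the lines EB5, J1 and TT2), 5 of cultures differentiated from ES cells, 2 of teratomas, and 1 array each of purified beta cells, Min6 and aTC. Min6 is a beta-cell line and aTC an alpha-cell line of the mouse islet, each a single line. The study describes both as immortalized and of long standing. Fresh alpha cells were not among the samples, so scores of aTC are those of a cultured line. The beta cells came from hand-picked islets and were sorted with an antibody to insulin. By the study, the donor mice ranged in age from below to above the 3 months of the adult tissue. They were transgenic, with a Pdx1-GFP construct. Whether that construct holds any of the arrayed Pdx1 sequence is not given in the sources used here. Pancreas means the whole organ, most of which is exocrine. The differentiated ES cells were embryoid bodies formed by aggregation, cells treated with retinoic acid, 2 arrays of endoderm and 1 of mesoderm. Endoderm and mesoderm were both sorted by reporter genes from EB5 cells induced with Activin. The labels give TT2 as the parent of the retinoic acid culture and J1 as the parent of the teratomas, whereas the methods name J1 for the former and D3 and C4 for the latter. Genomic DNA of normal tissue was from C57Bl/6 mice. Nothing in the labels says that arrays of one tissue came from separate animals, so p-values measure only the spread between these arrays.

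The share of probes whose input signal stood well above background differed between arrays, from 62.4% to 99.9%. Of the 4080 log ratios measured at these islands, 5.66% were listed as exactly 0, against 2.39% over all islands, with the highest share at Nkx6-1 island 1 (24.1%). The median correlation of an array with the others across islands was 0.63 to 0.88, with aTC (0.63) and Min6 (0.67) the lowest. The array labelled J1 went against its label in the files: its scanner ratios correlated across probes with its own column of the deposited processed table at r = 0.11, with EB5 at 0.64, with TT2 at 0.70 and with pancreas 2 at 0.88, while EB5 and TT2 correlated with each other at 0.72 and the pancreas arrays at 0.84. Results on undifferentiated ES cells are therefore given with and without it. Min6 and aTC were hybridised on 1 slide that held no other array used here, and beta cells, Min6 and aTC were scanned on 1 day with no other sample. Array 1 of brain, kidney, liver, lung, muscle and spleen and the array labelled J1 shared another scan day. At 4 of the 17 islands array 1 was the lower of the pair in all 6 of these tissues, and over all islands the 6 pairs went 1 way at 16.5%. These 4 were Pax6 island 1 (a median of -0.64 for array 1 minus array 2), Nkx6-1 island 2 (-0.42), Pdx1 island 1 (-0.27) and Nkx2-2 island 2 (-0.19). Scan day and array number cannot be told apart in these pairs.

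The main results turn on Pdx1, Neurod1 and Neurog3, and the start regions of these 3 genes are shown to give the density of CG there, as held by RefSeq for the build GRCm38.p6. Each covers 300 bases, most of them before the start and the last just after it, 5′ to 3′ on the strand of the gene, with each CG, the dinucleotide that carries the mark, in capitals. They are from chr5:147269847-147270146 (plus strand) for Pdx1, chr2:79456587-79456886 (minus strand) for Neurod1 and chr10:62132840-62133139 (plus strand) for Neurog3.
Pdx1: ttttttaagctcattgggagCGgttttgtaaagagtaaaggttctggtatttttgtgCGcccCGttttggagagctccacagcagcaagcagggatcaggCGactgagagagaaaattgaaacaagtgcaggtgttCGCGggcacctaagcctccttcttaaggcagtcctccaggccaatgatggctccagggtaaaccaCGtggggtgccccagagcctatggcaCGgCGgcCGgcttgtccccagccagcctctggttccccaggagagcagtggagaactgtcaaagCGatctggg
Neurod1: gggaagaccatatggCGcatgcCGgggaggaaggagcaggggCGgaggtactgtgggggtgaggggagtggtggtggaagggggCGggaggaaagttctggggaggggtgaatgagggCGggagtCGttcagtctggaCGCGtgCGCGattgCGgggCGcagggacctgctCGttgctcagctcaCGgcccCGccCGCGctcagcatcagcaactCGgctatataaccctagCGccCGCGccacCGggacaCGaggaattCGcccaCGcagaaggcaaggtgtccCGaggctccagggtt
Neurog3: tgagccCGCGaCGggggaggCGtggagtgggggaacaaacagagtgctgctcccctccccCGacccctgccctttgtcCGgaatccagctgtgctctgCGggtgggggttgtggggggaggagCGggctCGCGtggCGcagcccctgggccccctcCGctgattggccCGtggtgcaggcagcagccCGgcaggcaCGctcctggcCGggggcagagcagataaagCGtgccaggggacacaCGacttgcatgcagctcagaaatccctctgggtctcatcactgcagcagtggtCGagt

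The letters CG, which read the same on both strands, occurred 11 times in the Pdx1 window, 26 times in that of Neurod1 and 19 times in that of Neurog3. Over 32851 windows of the same 300 bases at gene starts the median was 7, and 94.6% held at least 1 CG. As many or more were held by 41.4% of the windows for Pdx1, 16.9% for Neurod1 and 28.1% for Neurog3. Of the member genes, Pax4 and Mafa were not matched among these windows. The counts are not those of the scored islands. The probes of Pdx1 island 1 begin 12 bases after the start, those of Pdx1 island 2 at 4411 and those of Neurod1 island 1 at 2124.

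The islands themselves are placed on the mouse build mm9 by the array files, which also give each probe's distance from the gene start. Pdx1 had an island at its start (chr5:148081691-148082315, 5 probes at 12 to 592 bases after the start, inside the gene) and another further into the gene (chr5:148086087-148086512, 5 probes at 4411 to 4786 bases). Mafa had 1 island of 13 probes (chr15:75576425-75578648, from -274 to 1898 bases from the start), Neurog3 1 of 7 (chr10:61595459-61596590, -353 to 731) and Isl1 1 of 8 (chr13:117099722-117100522, -600 to 149). Nkx6-1 island 1 (chr5:102087913-102088905, 5 probes) lies 4850 to 5788 bases after the start and island 2 (chr5:102092926-102094855, 12 probes) across the start. Neurod1 island 1 (chr2:79293970-79294691, 5 probes) lies 2124 to 2794 bases after the start and island 2 (chr2:79296695-79297212, 3 probes) at the start. The 4 islands of Nkx2-2 span chr2:147009567-147010358 to chr2:147019493-147020986, with islands 1 and 2 inside the gene and islands 3 and 4 upstream. The 4 islands of Pax6 span chr2:105508873-105510003 to chr2:105521667-105522627, with island 3 across the start, islands 1 and 2 upstream and island 4 inside the gene.

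In adult tissue the islet factor islands were mostly low. None of the 17 had a mean above 0.75 over the 16 adult arrays, against 11.8% of all islands, and 5 passed 0.75 on at least 1 adult array, against 20.6%. Only Neurog3 was below 0 on all 21 adult and embryo arrays, a state that held for 25.9% of all islands. On the adult arrays Neurog3 had a lowest score of -1.02, a median of -0.61 and a highest of -0.29, the lowest median of the 17 together with Pax6 islands 2 (-0.61) and 4 (-0.66). Isl1 stayed near 0, with a lowest score of -0.23, a median of -0.017 and a highest of 0.30. The 5 islands that passed 0.75 on an adult array were the 2 of Pdx1 on colon 1, Nkx2-2 island 3 on pancreas 2, Pax6 island 2 on liver 1 and Pax6 island 4 on liver 1 and brain 2.

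**Figure D1:**
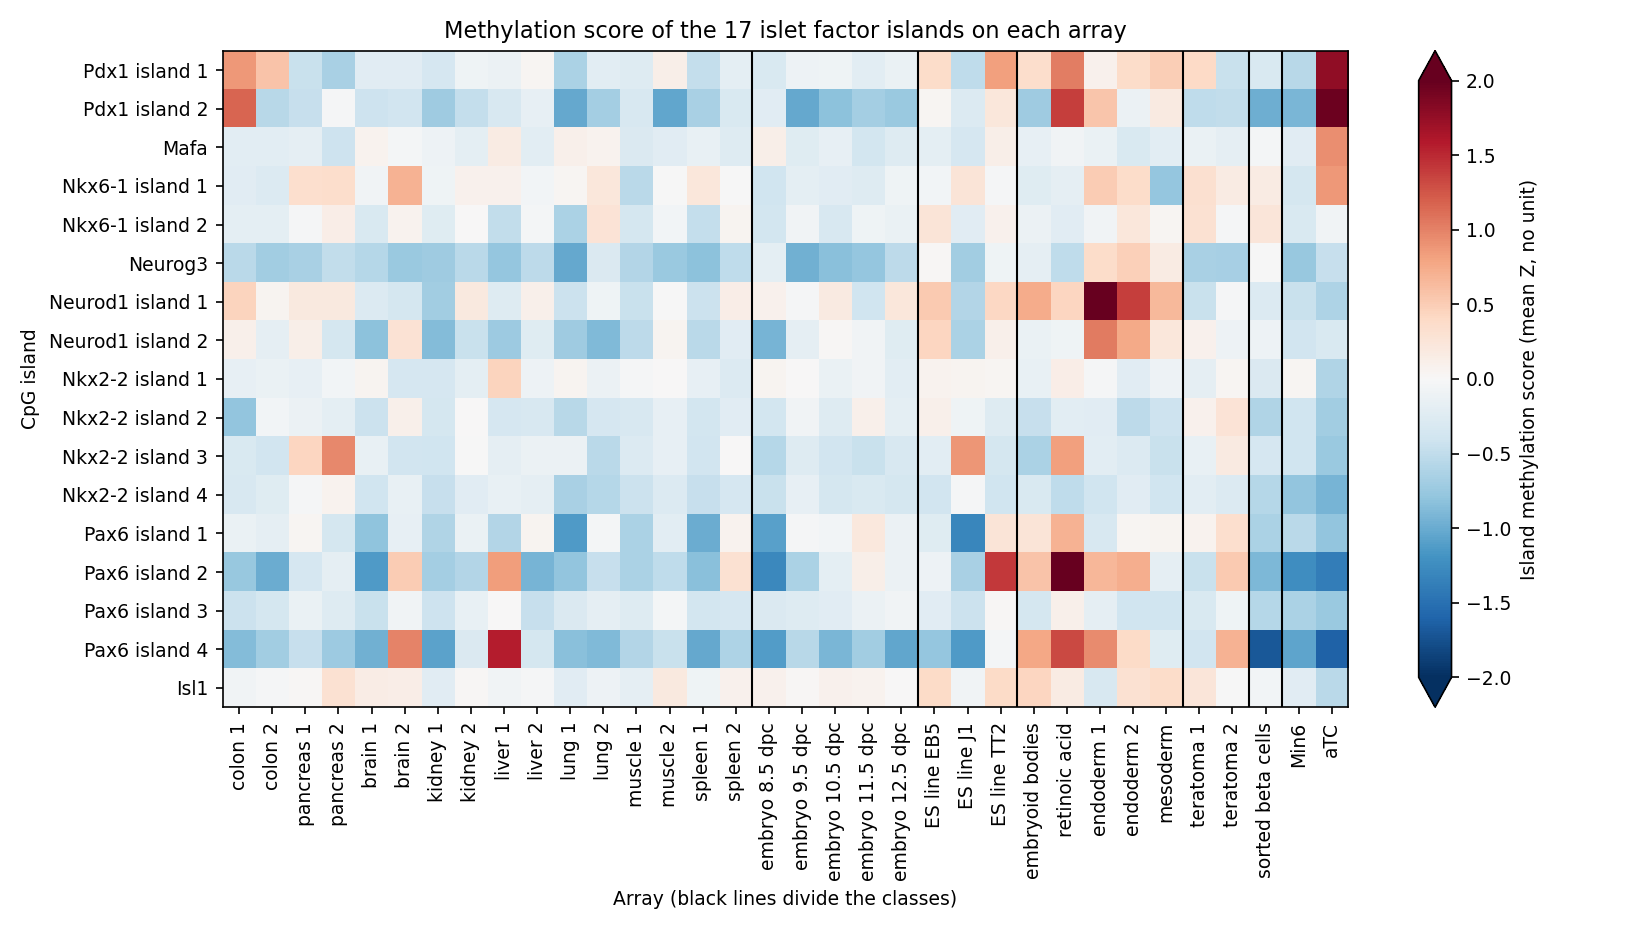
Island methylation score (colour, mean Z without unit, limits -2 and 2) of the 17 islet factor islands in rows on the 34 arrays in columns, with black lines between classes of samples. The 2 Pdx1 islands are darkest on aTC (1.77 and 1.96), Neurod1 island 1 on endoderm 1 (2.46) and Pax6 island 2 on the retinoic acid array (2.08).

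The Pdx1 islands were high in the alpha-cell line and low in every other pancreatic sample. At Pdx1 island 1 the IMS was 1.77 in aTC, -0.55 in Min6, -0.31 in sorted beta cells and -0.45 and -0.65 in the pancreas arrays. At Pdx1 island 2 it was 1.96 in aTC, -0.91 in Min6, -0.97 in beta cells and -0.45 and -0.019 in pancreas. aTC was the highest of all 34 arrays at both islands. The next highest array at island 1 was the retinoic acid culture (1.02), followed by colon 1 (0.86), and the same arrays came next at island 2 (1.38 and 1.16). All 10 Pdx1 probes took part: on aTC the Z of single probes ran from 1.20 to 2.07 at island 1 and from 1.75 to 2.21 at island 2. On Min6 the highest of the 10 was -0.0047, so the ranges of the lines did not overlap at any Pdx1 probe. With 1 array of each line there is no test of these differences between the lines. The difference of aTC from Min6 lies within 1 slide, and neighbouring probes within an island can read overlapping DNA fragments.

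Outside the pancreas Pdx1 island 1 had its highest adult scores in colon. Both colon arrays were scanned on 1 day with no other sample, so colon and scan day cannot be told apart. Colon gave 0.86 and 0.58 at island 1, both above the other 14 adult arrays, which had a lowest score of -0.65, a median of -0.23 and a highest of 0.12. Both colon arrays were above the other adult arrays at 1 of the 17 islands, against 4.41% of all islands. At island 2 the colon arrays disagreed (1.16 and -0.55), and all 5 probes of colon 1 lay at or above 0.89 while those of colon 2 were at or below -0.11. Pdx1 also acts in the duodenum and gastric antrum. The labels do not say which stretch of colon was taken. The range of the tissue means at island 1 was 1.27, with a p of 0.0015 and an adjusted p of 0.37 by limma's moderated F over the 8 tissues, so it did not pass. None of the 17 islands did, against 11 of 13659 (0.0805%). An unadjusted p under 0.05 was found for 3, against 4.13%.

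**Figure D2:**
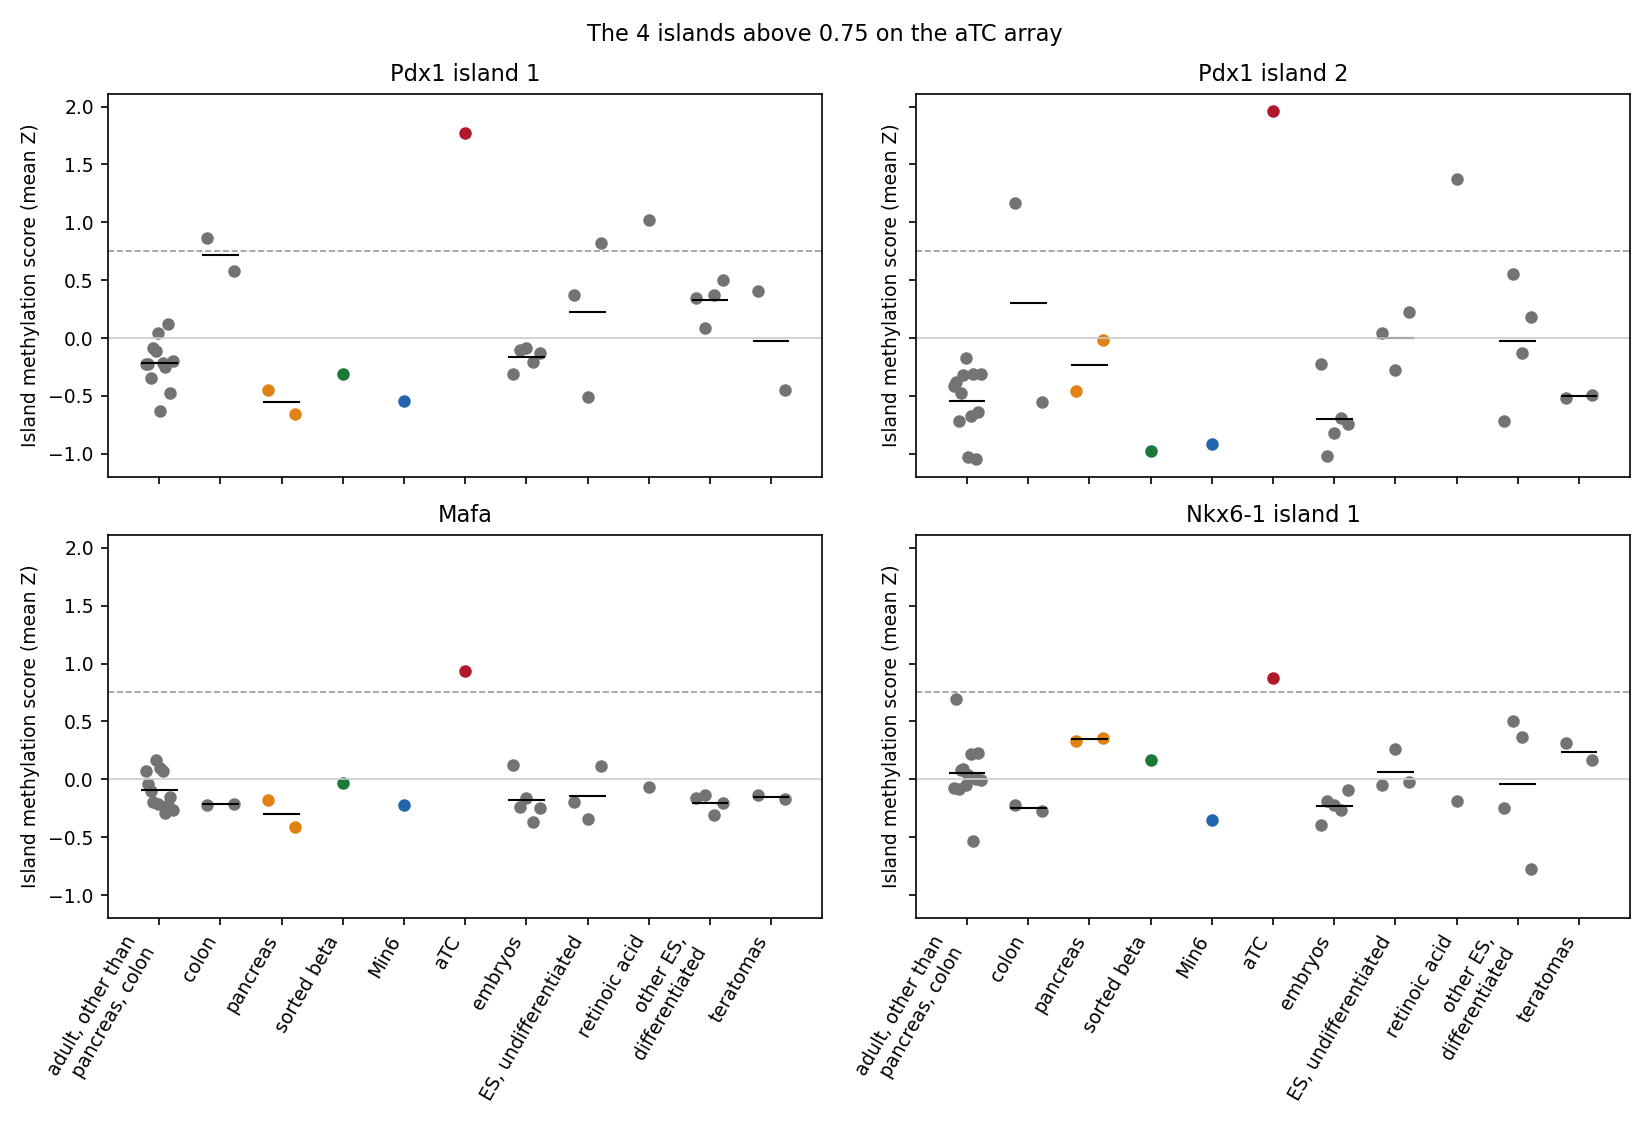
Island methylation score (y axis, mean Z) by group of samples (x axis) for the 4 islands above 0.75 on aTC; each point is 1 array, horizontal bars are means of groups with more than 1 array, and the dashed line marks 0.75. aTC (red) is the highest array in each panel, at 1.77, 1.96, 0.94 and 0.87, while Min6 (blue) lies below 0 in all 4.

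Mafa and Nkx6-1, markers of the mature beta cell, were also higher in aTC. Mafa had an IMS of 0.94 in aTC, -0.22 in Min6, -0.033 in beta cells and -0.18 and -0.41 in pancreas. The other 33 arrays had a lowest score of -0.41, a median of -0.18 and a highest of 0.17, which leaves a gap to aTC wider than their whole range. Of its 13 probes 11 exceeded 0.75 on aTC and 0 on Min6. The exceptions on aTC were the probe at -274 bases from the start (Z 0.054) and the one 1575 bases after it (0.25), and at the latter beta cells had 1.98. The contrast between arrays was widest at 705 bases after the start, where aTC had 1.49, Min6 -0.999, beta cells -2.11 and the pancreas arrays -1.97 and -2.26.

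At Nkx6-1 the result depended on the island. Island 1, near the end of the gene, had 0.87 in aTC, -0.35 in Min6, 0.17 in beta cells and 0.33 and 0.36 in pancreas, whereas island 2 at the start had -0.063, -0.31, 0.24 and -0.026 and 0.13 in the same order. In aTC, 3 of the 5 probes of island 1 were above 0.75, at 4850, 5220 and 5644 bases after the start (1.25, 1.75 and 1.21). Brain 2 had 0.69 at island 1 and brain 1 -0.075, so the margin of aTC over the next array was narrower there than at Pdx1. Its input was dim, with 2 of 5 probes well above background on every array. In all, 4 of the 17 islands were above 0.75 in aTC, against 23.2% of all islands, 0 in Min6, against 19.6%, and 0 in sorted beta cells, against 12.8%. The same 4 islands exceeded Min6 by more than 0.75 in aTC, a difference seen at 6.24% of all islands: 2.32 and 2.87 for Pdx1, 1.22 for Nkx6-1 island 1 and 1.16 for Mafa. Against sorted beta cells aTC was more than 0.75 higher at 3 of the 17 (13.8% of all islands), both Pdx1 islands and Mafa, and Min6 at 0 (10.6%). Neither line was more than 0.75 lower than beta cells at any of the 17, where aTC was at 9.09% and Min6 at 6.96% of all islands. With the ratios of bound over input rebuilt from the median signals after another background correction, chosen after seeing the data, all of these 4 islands were still above 0.75 in aTC.

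**Figure D3:**
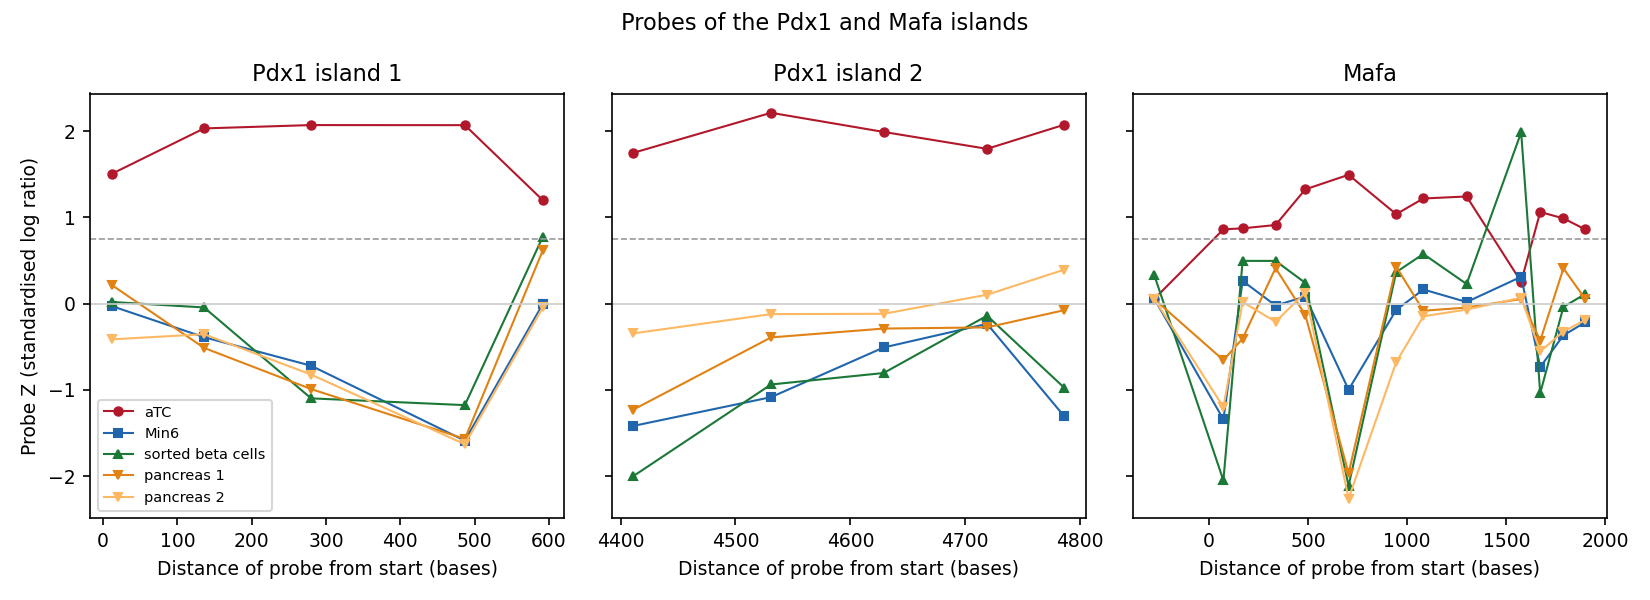
Standardised log ratio of single probes (y axis, Z) against their distance from the gene start in bases (x axis) at the Pdx1 islands and Mafa, with 1 line for each of 5 arrays; the dashed line marks 0.75. All Pdx1 probes of aTC (red) lie between 1.20 and 2.21, above each probe of Min6, beta cells and pancreas at the same place.

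The remaining factors were low in both lines. In aTC and Min6, respectively, Isl1 had -0.53 and -0.23, Neurog3 -0.47 and -0.76, Neurod1 island 1 -0.62 and -0.44 and island 2 -0.30 and -0.38. The islands of Nkx2-2 ran from -0.93 to -0.61 in aTC and from -0.78 to 0.043 in Min6, and those of Pax6 from -1.62 to -0.75 and from -1.24 to -0.55. aTC was the lowest of the 34 arrays at 6 of the 17 islands (Nkx2-2 islands 1, 3 and 4, Pax6 islands 2 and 3, and Isl1), against 20.2% of all islands, and the highest at 4, against 10.6%.

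Taken as a pair, the lines were tested against the 16 adult arrays by limma over all islands. Over all islands the median difference was -0.20, and 41.7% passed. Of the 17, 1 was higher (18.2% of all islands) and 3 were lower (23.5%), and their median difference was -0.27. Nkx2-2 island 4 differed by -0.56 (SE 0.13, adjusted p = 0.0014), Pax6 island 3 by -0.43 (SE 0.13, adjusted p = 0.0082) and Isl1 by -0.38 (SE 0.14, adjusted p = 0.034). Relative to the median of all islands these differences were -0.35, -0.22 and -0.17. Mafa was higher by 0.49 (SE 0.17, adjusted p = 0.020), and the difference was -0.089 with an adjusted p of 0.73 when Min6 was the only line. With 1 line left, the fit takes the spread from the other groups. None of the 17 islands passed with Min6 as the only line, against 15.3% of all islands, and 8 passed with aTC as the only line, against 28.5%. With slide as a random block the adjusted p was 0.064 for Mafa and 0.071 for Isl1. The Mafa call was also lost under 2 more of 12 alternatives, that of Isl1 under 6 of 12 in all and that of Pax6 island 3 under 5 of 12. Pdx1 islands 1 and 2 did not pass, with differences of 0.75 (SE 0.36, adjusted p = 0.086) and 0.92 (SE 0.45, adjusted p = 0.091). At both, aTC was above all 16 adult arrays and Min6 in the lower part of their range or below it. Line and slide cannot be told apart in this comparison.

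Irx2, a homeobox factor of alpha cells, showed the opposite order of the lines. Its 3 islands were lower in aTC than in Min6 by more than 0.75, a difference seen at 2.84% of all islands. Irx2 island 1 had 0.35 in Min6, -0.76 in aTC and -0.036 in beta cells, Irx2 island 2 had 1.32 in Min6, -0.65 in aTC and -0.17 in beta cells, and Irx2 island 3 had 1.26 in Min6, -0.72 in aTC and 0.24 in beta cells. Beta cells lay between the lines at all 3. Irx2 stands here for itself and not for the factors of alpha cells in general. The alpha-cell marker Gcg had 0 probes. Of the exocrine markers 1 gene had an island, Ptf1a, with -0.12 in Min6, 0.93 in aTC and -0.48 in beta cells and -0.44 and -0.40 in pancreas. The beta-cell markers Ins1, Ins2, Iapp and Slc2a2 had 0 probes. The arrays measure methylation and not expression, so the purity of the sorted cells could not be read from these markers.

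**Figure D4:**
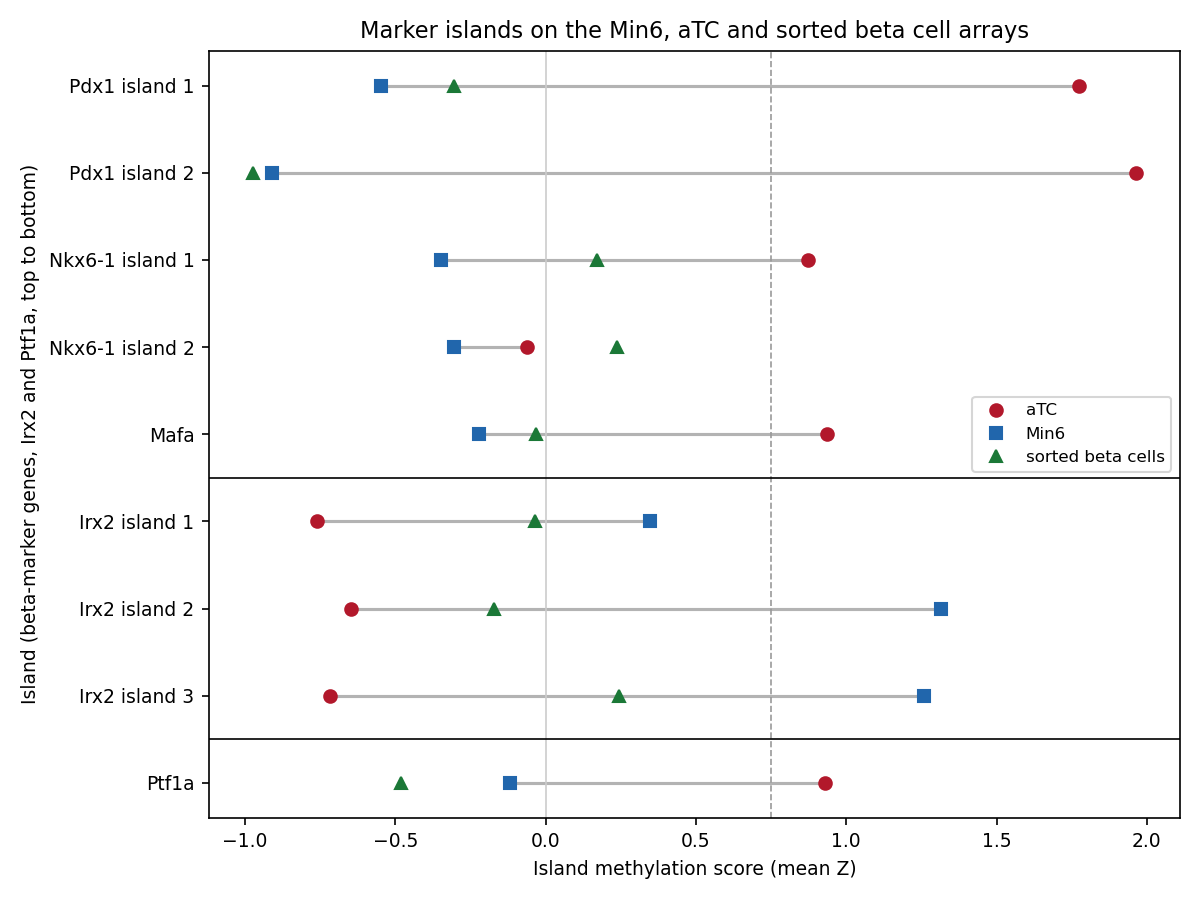
Island methylation score (x axis, mean Z) of the islands of beta-cell markers (top 5 rows), the alpha-cell marker Irx2 (next 3) and the exocrine marker Ptf1a (bottom row) on the aTC (red circle), Min6 (blue square) and sorted beta cell (green triangle) arrays, with a grey line joining both cell lines and a dashed line at 0.75. aTC lies right of Min6 at all 5 beta-marker islands and at Ptf1a, and left of it at the 3 islands of Irx2.

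Many islands of other pancreas and islet factors had high scores in both lines. A list of such factors, without the 9 genes, had 80 islands at 36 of 41 genes (4 genes matched by an older name), and 34 of the 80 were above 0.75 in Min6, 25 in aTC and 14 in beta cells, where the shares of all islands were 19.6%, 23.2% and 12.8%. Against adult tissue 30 of the 80 were higher in the lines and 3 lower, with a median difference of 0.37, where the median of all islands was -0.20. The largest differences were at Nkx6-2 island 2, a relative of Nkx6-1 (2.40), Insm1 island 1, an endocrine zinc finger factor (2.38), and Hhex, a factor of the early foregut (2.05). The lower islands were Rfx6, a factor of endocrine progenitors (-0.57), Tcf7l2 island 2, of a Wnt pathway factor (-0.56), and Hes1 island 1, of a Notch target (-0.46). Hhex had 1.88 in Min6, 1.64 in aTC and -0.39 in beta cells, Insm1 island 1 had 2.04 in Min6, 2.24 in aTC and 1.31 in beta cells, and Nkx6-2 island 2 had 2.24 in Min6, 1.88 in aTC and 0.52 in beta cells. Sorted beta cells were thus below 0 at Hhex and above 0.75 at Insm1 island 1. That island has 3 probes, at -3801 to -3402 bases from the start. Insm1 island 2, with 17 probes across the start (-807 to 1781), had -0.16 in Min6, 0.37 in aTC and 0.27 in beta cells. Of 22 genes of islet products 7 had an island, 8 islands in all. Against adult tissue 3 of the 8 were lower in the lines and 0 higher, where 23.5% of all islands were lower. They were Cpe (-0.56), a prohormone processing enzyme, Chgb (-0.39), a granule protein, and Abcc8 (-0.33), a subunit of the potassium channel of beta cells, and the median difference of the 8 was -0.34. Differentiated ES cells were higher than adult tissue at 9 of the 80 islands of other factors and lower at 4, where 14.4% and 8.54% of all islands were. The largest were Nkx6-2 island 2 (1.72), Foxa1 island 2, of an endoderm factor (1.29), and Gata4 island 3 (1.26) among the higher and Sox9 island 2, of a factor of pancreatic progenitors (-1.10), Prox1 island 1 (-0.40) and Lmx1b island 4 (-0.31) among the lower.

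Sorted beta cells were compared with whole pancreas as a description, since there is 1 array of beta cells. They were more than 0.75 lower than the mean of the pancreas arrays at 2 of the 17 islands, against 4.61% of all islands, and that much higher at 0, against 3.55%. The median difference of the 17 was -0.38, where that of all islands was 0.0086. At Pax6 island 4, inside the gene, beta cells had -1.69, the lowest of the 34 arrays, and pancreas -0.46 and -0.73. aTC (-1.62) and Min6 (-1.06) were low there as well. At Nkx2-2 island 3, about 1.6 to 1.9 kb upstream of the start, beta cells had -0.33, Min6 -0.39 and aTC -0.74, whereas pancreas had 0.43 and 0.96. Neurog3, the factor of endocrine progenitors, was -0.011 in beta cells and -0.64 and -0.50 in pancreas, and Pdx1 island 2 was -0.97 against -0.45 and -0.019. At Pdx1 island 1 beta cells (-0.31) were above both pancreas arrays (-0.45 and -0.65). After the other background correction 0 of the 17 differed by more than 0.75, and the differences at Nkx2-2 island 3 and Pax6 island 4 were -0.38 and -0.49.

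Among the adult tissues, Nkx2-2 island 3 set the pancreas apart. Its scores of 0.43 and 0.96 in pancreas were above those of the other 14 arrays, which had a lowest score of -0.53, a median of -0.23 and a highest of 0.0072. Nkx2-2 island 4, further upstream, was also above all other adult arrays but lower in level (-0.016 and 0.072, against a lowest score of -0.65, a median of -0.33 and a highest of -0.14). Over all islands both pancreas arrays lay above the other adult arrays at 1.33%, and here at 2 of 17. The pancreas exceeded the mean of the other tissues by 0.94 (SE 0.17, adjusted p = 0.14) at island 3 and by 0.37 (SE 0.11, adjusted p = 0.83) at island 4, and at Pdx1 island 1 it was lower (-0.47, SE 0.15, adjusted p = 0.93). In this fit of 8 tissues none of the 17 islands passed, against 6 of 13659 (0.0439%), and 3 had an unadjusted p under 0.05, against 4.85%. With the other 14 arrays taken as 1 group the difference at island 3 had an adjusted p of 0.016, and after the other background correction the difference was 0.23 with an adjusted p of 1.0. With a term for the scan day that 6 tissues share, chosen after seeing the data, it was 0.91 with an adjusted p of 0.24, and 0 of the 17 passed. Outside adult tissue, the array labelled J1 (0.89) and the retinoic acid culture (0.82) were as high at this island, and J1 is the array whose ratios resembled pancreas 2. Brain, where Pax6, Neurod1, Isl1 and Nkx2-2 also act, gave 0 calls among the 17 and among all islands by limma, with 0 of 17 at an unadjusted p under 0.05 (4.20% of all). Its arrays were -0.96 and 0.99 at Pax6 island 4, so they disagreed, and liver did likewise (1.57 and -0.36). In the list of pancreas and islet factors 1 of 80 islands passed in pancreas, Mnx1 island 2, of a motor neuron and pancreas homeobox factor, with 2.62 and 2.79 in pancreas, 2.02 in beta cells, 2.29 in Min6, 1.88 in aTC and an adult median of 0.033.

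ES cells differentiated in vitro had higher scores than adult tissue at 6 of the 17 islands and lower scores at 0, by limma. Over all islands 23.0% passed, 14.4% were higher and 8.54% lower, and the median difference was 0.19 over the 17 and -0.010 over all islands. The largest difference was at Neurod1 island 1, in the body of the gene (1.24, SE 0.22, adjusted p = 0.00011). The endoderm arrays had 2.46 and 1.39, mesoderm 0.66, embryoid bodies 0.74 and retinoic acid 0.43, and the adult arrays had a lowest score of -0.70, a median of -0.048 and a highest of 0.44. Both endoderm arrays were above every other array at this island, and embryoid bodies, mesoderm and the ES line EB5 (0.53) came next, above all adult arrays. On endoderm 1 all 5 probes were above 0.75, from 1.76 to 3.18, and on endoderm 2 this held for 4 of 5. Their input was dim, with 0 of the 5 probes well above background on every array. At the start of Neurod1, island 2 had 1.05 and 0.76 in endoderm, 0.23 in mesoderm and -0.13 and -0.093 in embryoid bodies and retinoic acid, and the adult arrays had a lowest score of -0.89, a median of -0.40 and a highest of 0.29. Its difference was 0.74 (SE 0.20, adjusted p = 0.0089), and without endoderm 1 it was 0.57 with an adjusted p of 0.059. Its input was dim as well, with 1 of 3 probes well above background on every array.

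Neurog3, which acts just before Neurod1, differed by 0.70 (SE 0.13, adjusted p = 0.00021) without reaching the methylated range. Its scores were 0.37 and 0.48 in endoderm, 0.17 in mesoderm, -0.18 in embryoid bodies and -0.51 in retinoic acid, and all but the last were above the highest of the 16 adult arrays (-0.29). Within the island the endoderm signal sat downstream of the start. The 3 probes at 512, 622 and 731 bases had 0.99, 1.19 and 1.46 on endoderm 1 and 1.11, 0.91 and 1.11 on endoderm 2, whereas the 4 probes at -353 to -7 bases lay between -0.68 and 0.48 on those arrays.

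The retinoic acid culture was high at other factors. It had 2.08 at Pax6 island 2, 1.31 at Pax6 island 4, 1.02 and 1.38 at the Pdx1 islands and 0.82 at Nkx2-2 island 3. Thus 5 of the 17 were above 0.75, against 12.4% of all islands. TT2, its parent by the label, had 1.41 at Pax6 island 2 and 0.82 at Pdx1 island 1. At Pax6 island 4, Pdx1 island 2 and Nkx2-2 island 3 TT2 had -0.042, 0.23 and -0.35. The array labelled J1, the parent by the methods, had 0.89 at Nkx2-2 island 3 and was below 0 at the others. Pax6, a factor of eye, brain and islet, had 0.57 in embryoid bodies, 0.66 and 0.73 in endoderm and -0.19 in mesoderm at island 2. At island 4 it had 0.77, 0.94 and 0.38 and -0.25 in the same order. The differences from adult tissue were 1.22 (SE 0.32, adjusted p = 0.0053) and 1.09 (SE 0.31, adjusted p = 0.0097). Input was dim here too: 0 of 3 probes at island 2 and 1 of 4 at island 4 were well above background on every array. The adult range at island 4 reached 1.57 on liver 1, above every ES cell array. Pdx1 island 1 differed by 0.61 (SE 0.19, adjusted p = 0.021), and island 2 did not pass (0.65, SE 0.25, adjusted p = 0.058). The call at Pdx1 island 1 was lost under 5 of 17 alternatives. Without the retinoic acid array the difference was 0.47 with an adjusted p of 0.091, and the adjusted p was 0.069 with Z from the median and the MAD, 0.087 with centred log2 ratios, 0.18 with the median of the probes and 0.071 with 6 classes in the fit. Since some slides held both ES cells and adult tissue, the limma fit was repeated within slides and within scan days. Within slides the difference rests only on endoderm 2 beside pancreas 1 and embryoid bodies beside brain 2. Within scan days kidney 2 and spleen 2 join brain 2. Endoderm 1, mesoderm and retinoic acid shared no slide or scan day with adult tissue. At Neurod1 island 1 the differences became 1.14 with an adjusted p of 0.0029 and 0.92 with an adjusted p of 0.0054. The calls at Neurod1 island 2, Pax6 island 2 and Pax6 island 4 were lost in both (adjusted p of 0.77, 0.50 and 0.77 within slides). At Pax6 island 4 brain 2 had 0.99 and brain 1 -0.96. After the other background correction the calls at Neurog3, Neurod1 island 2 and Pax6 island 2 were lost (0.22 with an adjusted p of 0.31, 0.32 with an adjusted p of 0.073 and 0.61 with an adjusted p of 0.075).

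**Figure D5:**
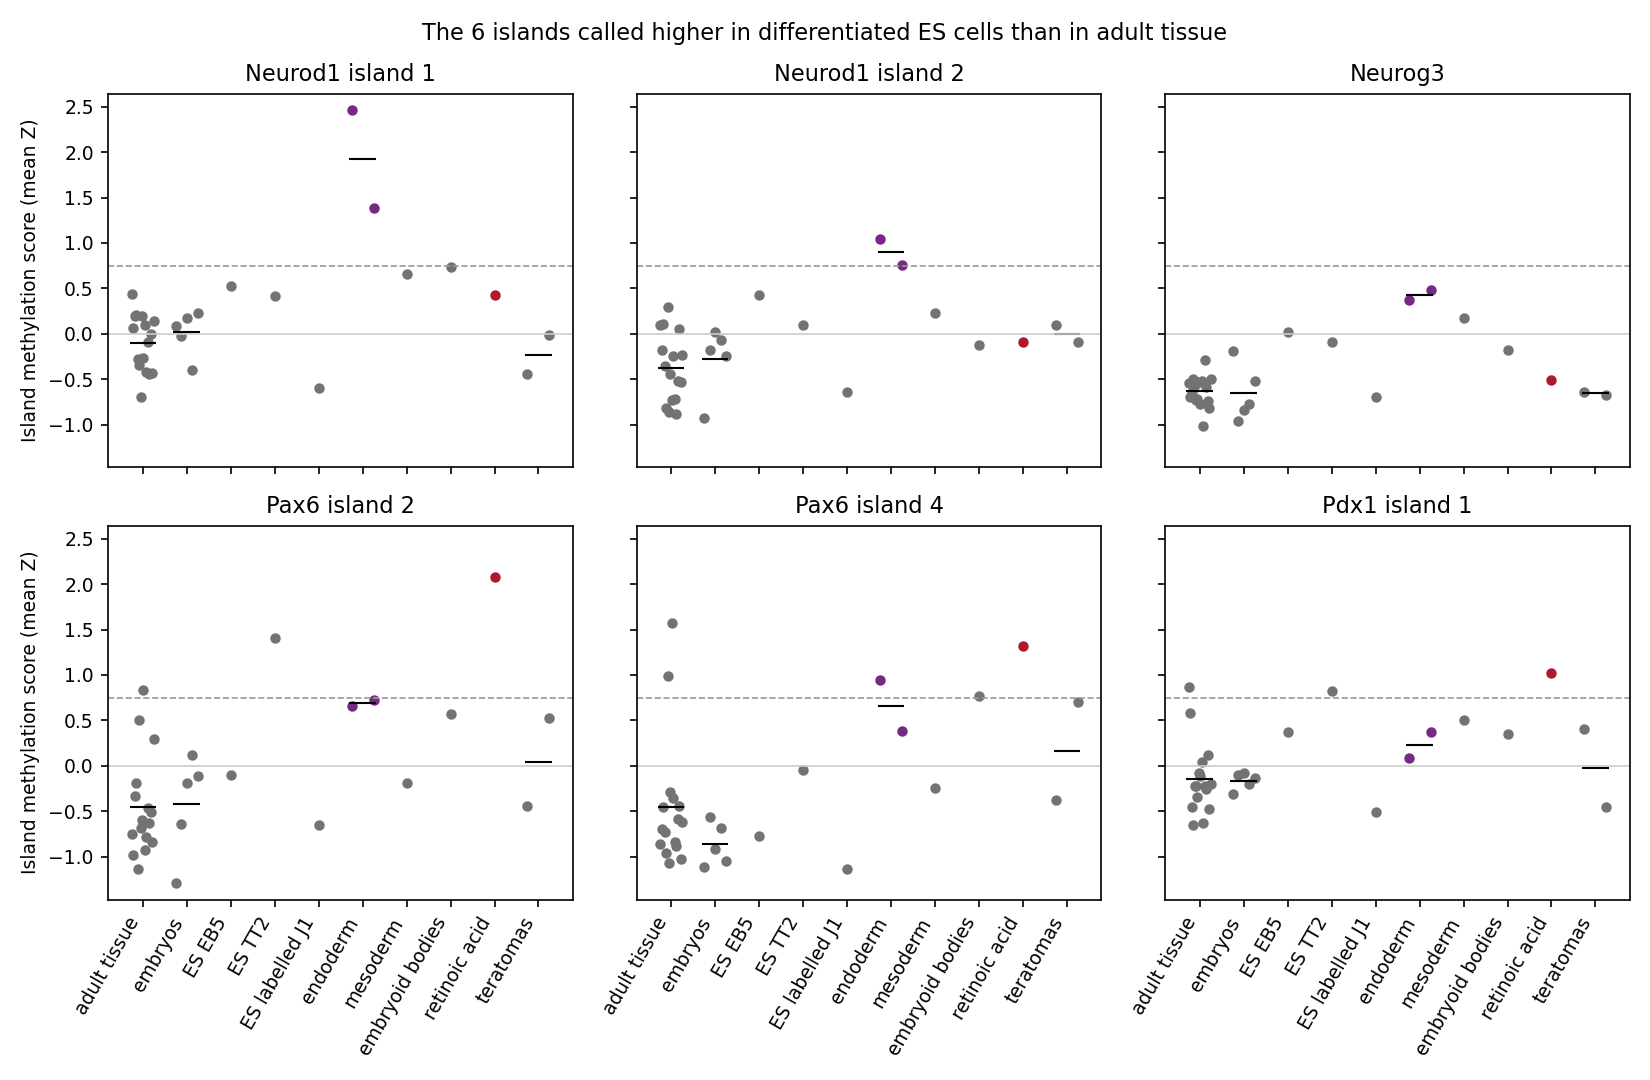
Island methylation score (y axis, mean Z) by group (x axis) for the 6 islands called higher in differentiated ES cells than in adult tissue; each point is 1 array, bars are means of groups with more than 1 array, and the dashed line marks 0.75. Endoderm (purple) is highest at both Neurod1 islands (2.46 and 1.39 at island 1) and at Neurog3, and retinoic acid (red) at Pax6 island 2 (2.08) and Pdx1 island 1 (1.02).

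Undifferentiated ES cells did not pass against adult tissue at any of the 17 islands by limma, against 2.34% of all islands. Neurog3 came closest (0.38, SE 0.16, adjusted p = 0.22), the only one of the 17 with an unadjusted p under 0.05, against 17.1% of all islands. Its arrays had 0.021 and -0.091 in EB5 and TT2 and -0.69 on the array labelled J1. Without that array the difference was 0.60 with an adjusted p of 0.035, in a fit that called 8.7% of all islands, and without EB5 or TT2 the fit called 0 of all islands. EB5 and TT2 also differed from each other: Pax6 island 2 had -0.10 and 1.41 and Pdx1 island 1 had 0.37 and 0.82. Between differentiated and undifferentiated ES cells 0 of the 17 passed, against 5.41% of all islands, and 2 had an unadjusted p under 0.05 (21.0%). Neurod1 island 1 was nearest the threshold (1.02, SE 0.32, adjusted p = 0.054). Without retinoic acid it was 1.19 with an adjusted p of 0.014, and without mesoderm 1.14 with an adjusted p of 0.048. Without the array labelled J1 it was 0.66 with an adjusted p of 0.30.

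Embryos stayed low at the islet factor islands. None of the 17 had an IMS above 0.23 on any of the 5 embryo arrays, and 0 passed against adult tissue by limma, where 7.61% of all islands passed (0 of 17 at an unadjusted p under 0.05, 20.1% of all). The Pdx1 islands had -0.31, -0.10, -0.081, -0.20 and -0.13 at island 1 and -0.22, -1.02, -0.82, -0.69 and -0.74 at island 2, from 8.5 to 12.5 days post coitum, the days in which the pancreatic bud forms. Neurod1 island 1, high in cultured endoderm, had 0.090, -0.026, 0.17, -0.40 and 0.23 in the embryos, which overlap the adult arrays. Whole embryos were used, and the pancreatic cells within them were not measured on their own. Teratomas, tumours grown from ES cells in an animal, gave 0 calls by limma among the 17, against 0.205% of all islands, with 1 at an unadjusted p under 0.05 (6.63% of all). That island was Nkx2-2 island 2 (0.086 and 0.27, a difference of 0.46, SE 0.15, adjusted p = 0.43). At Neurod1 island 1 the teratomas had -0.44 and -0.018, below both endoderm arrays, at Pdx1 island 1 0.40 and -0.45, and at Pdx1 island 2 -0.51 and -0.49.

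The genes outside the 9 whose islands most resembled Pdx1 over the 34 arrays were found by Pearson's r, as a description. For Pdx1 island 1 they were Cbln2 (r = 0.81), BC052055 (0.79) and Fat4 (0.78), and for island 2 Frmd3 (0.75), Cbln2 (0.73) and Nr2f2 (0.72). Each of these islands had a score above 0.50 in aTC and below 0 in sorted beta cells, for example Frmd3 with 1.43 in aTC, 0.041 in Min6 and -0.58 in beta cells. The genes were chosen with aTC and beta cells among the 34 arrays, so these scores follow in part from the choice. For the same genes the correlations without aTC fell to between 0.56 and 0.72 over 33 arrays. The arrays share slides, scan days and the set of tissues, so the points are not independent.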

How the data were processed

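Per the labels and the methods of the study, DNA bound by the antibody was labelled with Cy5 and input DNA with Cy3, and both were hybridised together to Agilent mouse CpG island arrays. The deposited scanner files hold, for each probe, a log10 ratio of Cy5 over Cy3 that Agilent Feature Extraction made from background-subtracted and linearly dye-normalised signals, and the red and green intensity columns deposited beside it were used to count dim probes and to rebuild the ratio. The table of standardised score values that the authors deposited, in which probes were scaled by melting temperature, served as an alternative only. The 9 genes and all lists were chosen with earlier results of these data known.

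From the scanner files, control spots were left out and the first spot of each probe was kept. Spots flagged as non-uniform or as population outliers in either colour were set to missing. The log10 ratio of each array was then standardised over the 88737 probes present on all 34 arrays. Island positions are on mm9, which the headers of 6 arrays name. Island scores were the mean over the probes, and all 13659 islands were fitted with limma 3.58.1 in R 4.3.3 (lmFit and eBayes), with p-values adjusted by Benjamini-Hochberg over all islands and a threshold of 0.05. ES cells (undifferentiated and differentiated), embryos and adult tissue were fitted jointly, another fit added teratomas and the cell lines, and a separate fit took the 8 tissues alone. All 9 genes are named, whatever their values, and from the other lists islands were named among the 3 called with the largest difference in each direction, for the cell lines and for differentiated ES cells against adult tissue only. Beta cells, Min6 and aTC, with 1 array each, were described by differences over 0.75 without a test. Some genes of the marker and other lists are not reported here by name, although the counts over the lists include them. The fits were tested on simulated data with independent noise and no effect of slide or scan day. Of 200 islands shifted by 1, 66.5% were recovered for pancreas against the other tissues. For differentiated ES cells against adult tissue it was 97%. Of the islands called there, 6.99% for pancreas and 5.37% for differentiated ES cells had not been shifted. Over 28 pairs of tissues the deviations of equal replicate numbers from the tissue mean correlated at -0.25 to 0.61, with a median of 0.096, so the number was not taken as a pairing of all 8 tissues. Over the 15 pairs of the 6 tissues whose array 1 shared a scan day the median was 0.36, and 13 of the 15 were above 0.1. The number of arrays and the input signal over background limit the precision. The alternatives were another standardisation, centring, background correction, probe filter, summary, threshold, classes in the fit, slide and scan day as blocks, the scan day shared by 6 tissues as a term (chosen after seeing the data), the replicate number as a block, the deposited table, the t-test of the methods and leaving out each array.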

Additional observations from a re-analysis of the deposited data

Results flagged for a closer look

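Of 34 sets of 5 arrays (17 islands in embryos and in differentiated ES cells), 3 held an array far from the others of its class, and chance gives about 1 in 20. Nkx2-2 island 3 was 0.82 in the retinoic acid culture, where the other 4 differentiated ES cell arrays lay between -0.63 and -0.22. The embryo of 8.5 days post coitum had -1.09 at Pax6 island 1, with the other 4 embryos between -0.12 and 0.21, and -0.93 at Neurod1 island 2, with the others between -0.24 and 0.023.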

How the results depend on the processing

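Of the counts over the 17 islands, 154 values under the alternatives stayed within 1.5 times the reported count and 37 did not. For differentiated ES cells against adult tissue (6 islands) the count was 1 with the deposited table, which scored 7 of the 17 islands, 3 with only bright probes (9 islands scored), 3 with at least 5 probes (12 scored) and 5 to 7 without each array in turn. Over all islands this comparison called 3135 of 13659 in the main fit and 1305 of 5849 with the deposited table. Bright probes gave 2055 of 8717 and at least 5 probes 1854 of 8811. For undifferentiated ES cells (0 by limma) the count was 4 with the deposited table, where the column of the array labelled J1 differs from its scanner file. It was 2 with slide as a fixed block and 0 to 1 without each array. Over all islands 320 of 13659 were called in the main fit, 1535 of 5849 with the deposited table and 301 of 13659 with the fixed block. For differentiated against undifferentiated ES cells (0) the count was 2 with the deposited table and 1 with 6 classes in the fit. It was 1 with slide as a random block and 0 to 1 without each array. Over all islands 739 of 13659 were called in the main fit and 1335 of 5849 with the deposited table. The 6 classes gave 778 and the random block 834. For the cell lines against adult tissue (4) it was 1 with Z from the median and the MAD, 8 with centred log2 ratios, 2 with the deposited table, 2 with the median of the probes, 2 with slide as a random block and 0 to 8 without each line. Over all islands this comparison called 5694 of 13659 in the main fit, 2888 with Z from the median and the MAD and 7334 with centred log2 ratios. The deposited table gave 2809 of 5849, the median of the probes 4336 and slide as a random block 4153. The difference at Mafa in this comparison turned to -0.089 without aTC and was 1.07 without Min6. For pancreas (0) the count was 1 with 2 arrays against 14 as 1 group, a fit that called 7 of all 13659 islands. Without each array the counts for embryos, teratomas, pancreas, brain and variation among tissues stayed at 0.

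The count above 0.75 in aTC (4) was 1 with the deposited table, which scored Mafa but neither Pdx1 island, and 2 at a threshold of 1. For aTC minus beta cells (3) it was 7 with centred log2 ratios and 1 with the deposited table. For Min6 minus beta cells (0) it was 1 with Z from the median and the MAD, 2 with centred log2 ratios, 1 with normexp on median signals, 1 with the deposited table, 1 with bright probes, 2 with the median of the probes and 4 at a threshold of 0.5. For beta cells minus pancreas (2) it was 5 with Z from the median and the MAD, 6 with centred log2 ratios, 6 at a threshold of 0.5, and 0 with normexp, the deposited table, bright probes or at least 5 probes. On the log2 scale the thresholds are in other units than Z. The causes of these changes were not tested, apart from the smaller number of islands scored. The normexp correction was planned on mean signals and run on median signals, chosen after seeing the data, since mean signals were not given for 18 arrays.

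The replicate number as a block, which also marks a shared scan day for 6 of the 8 tissues, gave 0 islands called for pancreas, 0 for brain and 0 for variation among the tissues by limma, as without it, and a term for that scan day gave the same counts. The share of inputs well above background was lowest at Nkx6-1 island 1 (55.3%), Neurod1 island 2 (56.9%), Pax6 island 1 (63.9%) and Neurod1 island 1 (67.6%).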
